A study of Homo sapiens with 4 samples.

Results

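Messenger RNA of the cytosolic ribosomal proteins was measured in LAPC4, a human prostate cancer line that responds to androgens and is an established cell line, on 4 Affymetrix arrays. A gene was included if its symbol is RPL, RPLP or RPS followed by a number (RPS4X was kept, while symbols ending in A, L or Y, S6 kinases, mitochondrial ribosomal proteins and pseudogenes were left out) and if at least 1 probe set names that gene alone. The rule found 45 genes, 26 of the large and 19 of the small subunit, among 11963 genes named by the array. All 45 passed the filter, for which 1 or more arrays had to show a signal of 20, as did 9193 genes in all. The brightest probe set by the mean over the 4 arrays stood for each gene. Of 64 symbols that meet the rule in the RefSeq gene table, 19 have no probe set of their own on this array, among them RPL5 and RPLP0, and were not analysed here. The 45 genes lie on 18 chromosomes.

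Each condition was represented by 1 array, taken after 72 hours. Control cells and cells with β-TrCP shRNA were each kept in medium with 10% fetal calf serum (FCS) and 100 pM methyltrienolone, a synthetic androgen, or with 10% charcoal stripped serum (CSS), which is depleted of androgens. The shRNA is carried by a lentiviral vector with a doxycycline-dependent promoter and is directed at both β-TrCP genes, BTRC and FBXW11, which encode substrate-binding subunits of a ubiquitin ligase. By the labels, the arrays without knockdown came from cells with a GFP vector, the study's methods name the vector alone, and its results describe shRNA cells without doxycycline, so that effects of the vector or of doxycycline cannot be told apart from those of the shRNA. FBXW11 had a normalized log2 signal of 8.02 and 8.19 in control cells in FCS and CSS, and of 5.02 and 4.68 with the shRNA. Prostate luminal markers KLK3, KLK2, KRT8, KRT18, TMPRSS2 and EPCAM were above the floor of log2 4.32 on all 4 arrays, no single-gene probe set was measured for FOLH1, and CD3E and PECAM1 were at the floor on all 4. KLK3 and KLK2, which androgens are known to induce, did not read lower on the control array labelled CSS: KLK3 was 9.002 in control cells in FCS and 9.74 in CSS, and KLK2 8.30 and 9.001, so that the comparison is called by its serum below. In shRNA cells KLK3 was 8.02 in FCS and 8.37 in CSS, and KLK2 7.07 and 6.59. Of 4 measured fibroblast markers COL1A1 was above the floor on all arrays, at 5.10 and 5.00 in control cells and 4.99 and 5.58 in shRNA cells, with the shRNA CSS array highest. COL1A2, DCN and PDGFRB and the monocyte marker CD14 were at the floor on 3 arrays and above it, at up to 5.01, on the array of shRNA cells in CSS. That array also stood apart as a whole, with correlations of 0.934 to 0.935 with the others over 15643 probe sets, where the other 3 correlated at 0.979 to 0.989. With 1 array a condition, a change between 2 conditions has no replicate check and no p-value.

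The cytosolic ribosome is built from a small subunit, which reads the messenger RNA, and a large subunit, which joins amino acids. Its proteins are made in nearly equal numbers, and their messenger RNAs are among the most abundant of any growing cell. In mammals much of their control is at translation, through a pyrimidine tract at the very start of the message (the 5′ terminal oligopyrimidine tract, or TOP) that makes them sensitive to serum, nutrients and mTOR signaling.

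The starts of 6 of these genes are shown because they include the genes with the lowest and with some of the highest combined changes below (RPS7, RPS9, RPL35 and RPS4X) and 2 with known roles in signaling (RPS6 and RPL11). They are 30 bases of RefSeq sequence on GRCh38.p14, with 12 bases before an annotated first transcribed base and 18 from it on, 5′ to 3′. Capitals mark a C at the first transcribed base and the pyrimidines (C or T) that follow it without a break, where these are at least 4, on the sense strand.
RPS6: cggaagttggccCTCTTTTCCgtggcgcct
RPL11: aagctccgctttCTCTTCCTgctctccatc
RPS9: gcgcttccgcgcCTCTTTCTCagtgaccgg
RPL35: cccgcctacttcCTCTTTCCCTCggagcgg
RPS7: tccgccctcctcctcgcgctgtttccgcct
RPS4X: gtctccagccccaatttctacgcgcaccgg
These windows are chr9:19380219-19380248 on the minus strand for RPS6, chr1:23691794-23691823 on the plus strand for RPL11 and chr19:54200846-54200875 on the plus strand for RPS9. They are chr9:124861940-124861969 on the minus strand for RPL35, chr2:3575248-3575277 on the plus strand for RPS7 and chrX:72277231-72277260 on the minus strand for RPS4X. RPL11 has another annotated start, without the run. The run was 9 bases long in RPS6, 8 in RPL11, 9 in RPS9 and 11 in RPL35, and absent in RPS7 and RPS4X.

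Starts were listed for 41 of the 45 genes, and 30 of these 41 (73.2%) had a start with the run, against 517 of 7407 other measured genes (6.98%). Over single starts it was found in 30 of 48 starts of ribosomal protein genes (62.5%) and in 1429 of 35116 starts in all (4.07%). With the run allowed to begin anywhere from 5 bases before to 10 bases after the annotated base, it was found in 39 of 48 starts (81.2%) and in 7408 of 35116 (21.1%). A match is a description of the letters, and its absence says only that they are not at this annotated base.

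Across the 4 conditions the messenger RNA of the cytosolic ribosomal proteins differed little from array to array, at signals where the changes of other genes spread less than they did lower down. Apart from RPLP2 they lay between the 97.7th and the 100th percentile of the deposited values on every array, and what part probe saturation or the ranks of the quantile normalization have in their evenness was not tested. The median normalized log2 signal of the 45 genes was 12.44 in control cells in FCS, 12.44 in control cells in CSS, 12.44 in shRNA cells in FCS and 12.45 in shRNA cells in CSS. Over the 4 arrays, 27 of the 45 genes varied by at most 0.1 on the log2 scale, as did 699 of all 9193 genes. The median range over the arrays was 0.084 for the ribosomal protein genes and 0.548 for all genes. RPS7, RPS9, RPL36 and RPLP2 were the 4 genes that ranged by more than 0.2. Equal masses of RNA from bulk cultures went onto the arrays, so that a level is a share of the RNA, and changes in the mix of cells and in RNA per cell cannot be told apart. The probe sets used carry the suffix _x_at for 14 genes and _s_at for 22, which marks probes shared with other transcripts, so that part of their signal can come from processed pseudogenes. The median combined change was 0.00 for the 14, 0.03 for the 22 and 0.01 for the 9 without a suffix. The kinds of probe set differed more in other comparisons: with the shRNA in CSS 2 of the 14 were higher and 11 lower (median -0.03), against 15 and 4 of the 22 (0.04), and with CSS in control cells 12 and 2 of the 14 (0.05), against 9 and 12 of the 22 (-0.01).

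**Figure D1:**
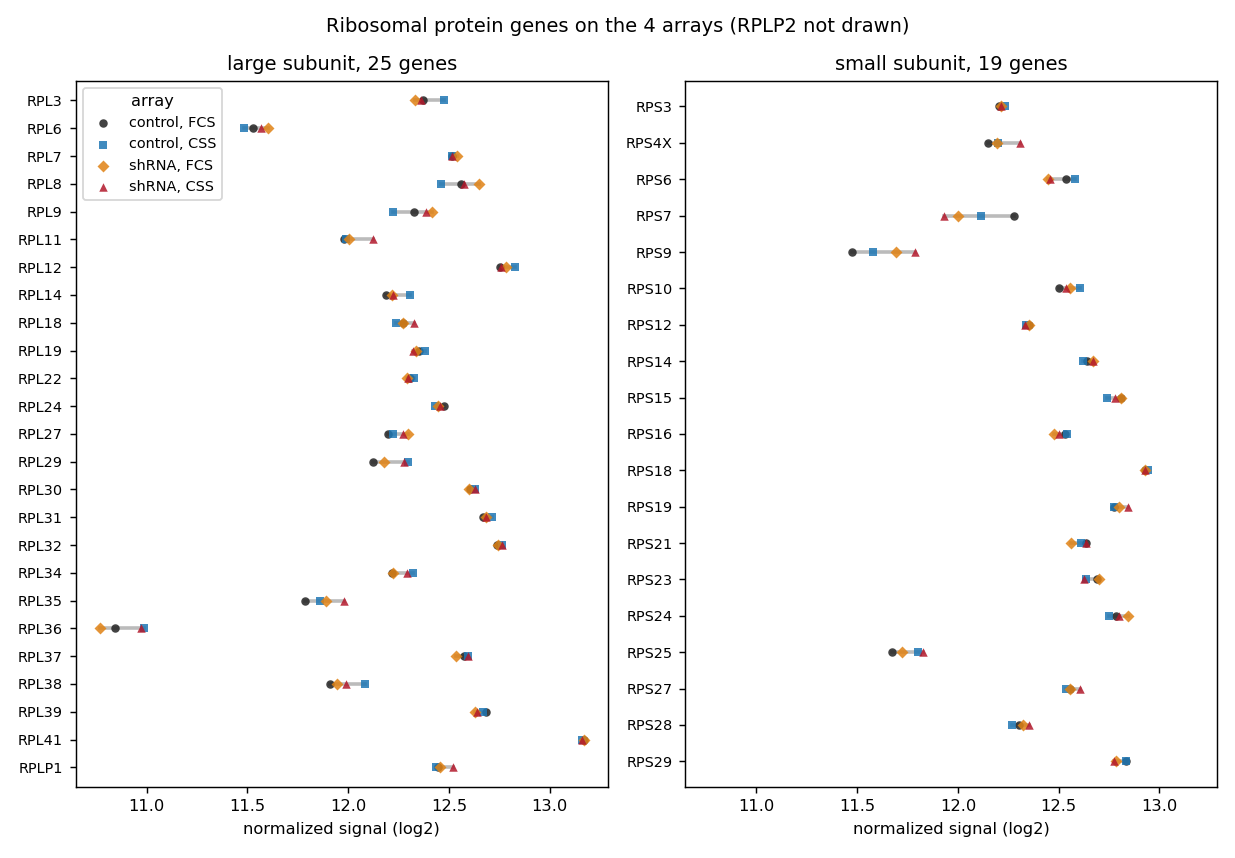
Normalized log2 signal (x axis) of 44 ribosomal protein genes on the 4 arrays, 25 genes of the large subunit on the left and 19 of the small subunit on the right, with 1 symbol per array and a grey line from the lowest to the highest. For most genes the 4 symbols nearly coincide, while RPS7, RPS9 and RPL36 are spread by more than 0.2; RPLP2, at 4.67 to 5.07, is not drawn, and levels of different genes come from different probes and are not compared.

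In control cells, CSS against FCS, the median log2 change was 0.02 over the 45 genes and 0.02 over all genes. Of the 45, 26 were higher and 17 lower, with a range of -0.16 to 0.17. None reached 1.5-fold in either direction, where 2.47% of 7978 genes were at least 1.5-fold higher and 2.23% lower. With the shRNA in FCS the median was 0.01 over the 45 genes and 0.00 over all genes. Of the 45, 26 were higher and 14 lower, with a range of -0.28 to 0.22. Again none reached 1.5-fold, where 3.22% of 7980 genes were higher and 3.36% lower by that much. The control CSS array differed in signs of RNA quality: the log2 difference between the 3′ and the 5′ probe set of ACTB was 1.03 on it and 0.409 to 0.446 on the others, and the mean of 3 probe sets for 18S ribosomal RNA was 5.80 against 5.04 to 5.19. Their part in the small changes with CSS was not tested.

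The combined treatment (shRNA cells in CSS against control cells in FCS) put the median at 0.03, and that over all genes at 0.03 too. Of the 45 genes 30 were above and 13 below 0, with a range of -0.35 to 0.36. The shares of all genes above and below 0 are not given here. None of the 45 reached 1.5-fold, although 18.2% of 8700 genes were at least 1.5-fold higher on this comparison and 16.3% lower. Most of those genes were far dimmer: 43 of the 45 lay at a mean signal of log2 11 or more, where 0 of 80 other genes at 11 to 12 and 1 of 17 at 12 or more were past 1.5-fold. The robust SD of the log2 change, a scaled median absolute deviation that a few extreme genes do not move, was 0.07 over the ribosomal protein genes and 0.59 over all genes. Set against the shRNA cells in FCS, the same array had 26 of the genes higher and 15 lower around a median of 0.01, and none past 1.5-fold, where 17.5% of 8733 genes were higher and 16.0% lower. Set against control cells in CSS, it had 21 higher and 20 lower around a median of 0.00, and again none past 1.5-fold, where 16.7% of 8731 genes were higher and 16.4% lower. The median over all genes was 0.03 for CSS in shRNA cells and 0.01 for the shRNA in CSS. These comparisons share arrays and are not independent of each other. On the array that stood apart, the 45 genes had correlations of 0.997 to 0.999 with their values on the other arrays, and of 0.978 to 0.993 without RPLP2, whose signal was far lower. These correlations run across genes, which are not independent replicates.

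The combined change can also be set against the sum of the changes with each treatment alone. For the ribosomal protein genes the departure from that sum had a median of 0.00 and a range of -0.13 to 0.35, with a robust SD of 0.06. None of the 45 departed by 1.5-fold or more, as 2620 of 7823 genes did (33.5%). The robust SD over those genes was 0.55.

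**Figure D2:**
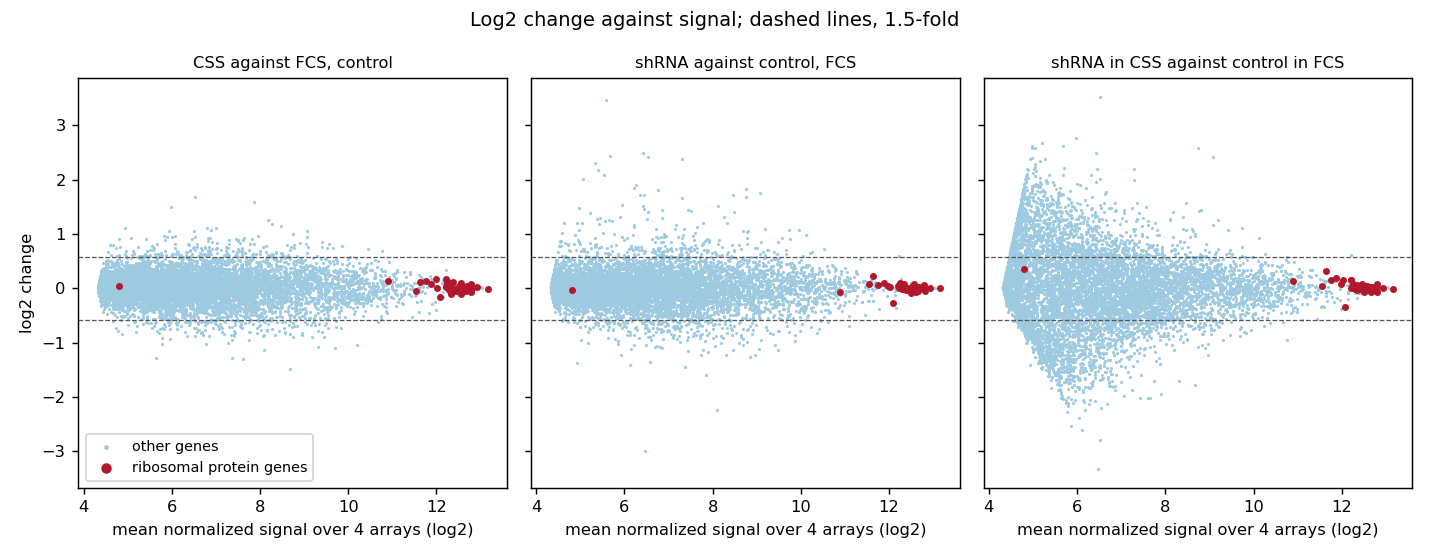
Log2 change (y axis) against mean normalized log2 signal over the 4 arrays (x axis) for each gene, in 3 panels for CSS in control cells, the shRNA in FCS and the combined treatment, with ribosomal protein genes in red, other genes in blue and dashed lines at 1.5-fold. All 45 red points lie between the dashed lines in each panel, 44 of them at the bright end, while the blue points of dim and middle signal fan out with the combined treatment.

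These values depended on how the arrays were scaled. The values as deposited, without the quantile normalization used here, gave medians of 0.02, 0.03 and 0.05 for CSS, the shRNA and the combined treatment, with all genes at 0.01 for CSS and -0.17 for the combined treatment. The median over all genes was also -0.20 for CSS in shRNA cells and -0.22 for the shRNA in CSS, so that the ribosomal protein genes stood 0.22 to 0.24 above it in all 3 comparisons that use the shRNA CSS array. Arrays aligned on a common median gave 0.33, 0.31 and 0.33 for the ribosomal protein genes in those 3, with 44, 45 and 45 of 45 higher, and 0.28, 0.30 and 0.29 for the 17 other genes with a mean signal of at least log2 12. Of the 3 scalings, the quantile normalized and the deposited values put the ribosomal protein genes near 0, and the common median shifted them and other genes of that brightness alike.

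RPS7 had the lowest change of the 45 genes with each treatment against control cells in FCS. It is a protein of the small subunit that also binds the p53 ligase MDM2, encoded at chromosome 2, 3575260 to 3580920 (GRCh38.p14). Its normalized log2 signal was 12.28 in control cells in FCS, 12.12 in control cells in CSS, 12.001 in shRNA cells in FCS and 11.93 in shRNA cells in CSS. Both shRNA arrays were below both control arrays. The changes against control cells in FCS were -0.16, -0.28 and -0.35, the last a 1.27-fold lower signal. Its other probe set read 11.96, 11.96, 11.76 and 11.71, again with both shRNA arrays lower, with changes of 0.00, -0.20 and -0.25. The local spread is the robust SD over the 1000 probe sets of most similar signal. For all 45 genes but RPLP2 these were the same 1000 brightest probe sets, most of them dimmer than the gene. Their spread was 0.19 for the shRNA in FCS and 0.21 under the combined treatment. Over the 17 other genes at log2 12 or more the robust SD was lower, at 0.08 and 0.07. RPS7 exceeded both local spreads in the probe set that stood for it and in its other one, there narrowly for the shRNA in FCS.

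RPS9 had the highest change with the shRNA in FCS. It is a small subunit protein with a part in the accuracy of decoding, encoded at chromosome 19, 54200858 to 54207647. Its signal was 11.47 in control cells in FCS, 11.58 in control cells in CSS, 11.69 in shRNA cells in FCS and 11.79 in shRNA cells in CSS, so that both shRNA arrays were above both control arrays. The changes were 0.11, 0.22 and 0.31, the last a 1.24-fold higher signal. Its dimmer probe set read 10.56, 10.62, 10.59 and 10.68 and did not separate the shRNA arrays from the controls, with changes of 0.05, 0.03 and 0.12. RPS7 and RPS9 were the 2 genes beyond the local spread for the shRNA in FCS, for the combined treatment and for the shRNA in CSS.

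RPL36, a large subunit protein, read higher on both CSS arrays than on both FCS arrays after quantile normalization, but not as deposited. Its signal was 10.84 in control cells in FCS and 10.99 in control cells in CSS, and 10.77 and 10.97 in shRNA cells. The change with CSS was 0.14 in control cells and 0.203 in shRNA cells, where it was the only one of the 45 beyond the local spread, by a narrow margin (0.202). As deposited RPL36 read 10.872, 10.980, 10.839 and 10.868 in the order used above, with CSS changes of 0.11 and 0.03. RPL29 and RPL38, both of the large subunit, also read higher on both CSS arrays, with changes of 0.17 each in control cells and of 0.10 and 0.05 in shRNA cells. RPS25, which is needed for initiation at some internal ribosome entry sites, had log2 changes of 0.13 and 0.11.

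The genes at the upper end of the combined treatment besides RPS9 were RPLP2, RPL35, RPS4X and RPS25. RPL35 read 11.79, 11.86, 11.89 and 11.98 in the order used above, lowest in control cells in FCS and highest in shRNA cells in CSS, with changes of 0.08, 0.10 and 0.19. RPS4X, the X-linked form of a small subunit protein, had log2 changes of 0.05, 0.04 and 0.16, and of 0.22, 0.11 and 0.28 in its other probe set. At the lower end besides RPS7 were RPS6, RPS23, RPS29 and RPL39, with combined changes of -0.07, -0.07, -0.06 and -0.04. All were smaller than the local spread of 0.21, which rests mostly on dimmer probe sets. RPL8 and RPL9 were at the lower end with CSS in control cells, at -0.10 and -0.11, and each read 0.09 with the shRNA in FCS.

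Other genes with known roles in signaling or disease had smaller combined changes than RPS7 and RPS9. RPS6, the substrate of the S6 kinases downstream of mTOR, read 12.53, 12.58, 12.45 and 12.46, and its 2 other probe sets, with combined changes of -0.04 and -0.02, did not repeat the small difference between control and shRNA cells. RPL11, which binds MDM2 when ribosome assembly is disturbed, read 11.98, 11.99 and 12.01 on the first 3 arrays and 12.12 in shRNA cells in CSS, a combined change of 0.15. RPS19, which is mutated in Diamond-Blackfan anaemia, had log2 changes of 0.00, 0.03 and 0.07. RPS14, a gene in the region deleted in the 5q- syndrome, had log2 changes of -0.02, 0.03 and 0.03. RPS3, which also acts in DNA repair, read 12.20, 12.23, 12.22 and 12.22, a range of 0.03. RPL3, at the peptidyl transferase centre, had log2 changes of 0.11, -0.04 and -0.01. RPL41 read 13.17, 13.16, 13.17 and 13.16 and was the most even of these after normalization. It lay at the 99.99th or 100th percentile on every array, where quantile normalization sets the value by rank. As deposited it read 13.183, 13.180, 13.121 and 13.166.

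The stalk proteins recruit elongation factors to the ribosome. RPLP1 read 12.44, 12.44, 12.45 and 12.52, a combined change of 0.08. RPLP2 was represented by a dim probe set, since its brighter one is also annotated to a small nucleolar RNA, and read 4.71, 4.76, 4.67 and 5.07, close to the floor. Its combined change of 0.36, the highest of the 45, lay within the local spread of 0.85 at that signal. Without RPLP2 the median of the remaining 44 genes was 0.01, 0.01 and 0.02 for CSS, the shRNA and the combined treatment.

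Both subunits had like medians. In the combined treatment the median was 0.03 over the 26 large subunit genes, 20 of them higher and 6 lower, and 0.01 over the 19 small subunit genes, 10 of them higher and 7 lower. Genes with a pyrimidine run at an annotated start (30 genes) and those with starts but no run (11 genes) both had a median of 0.03, and the medians with CSS in control cells were 0.02 and 0.00. Another 29 measured probe sets name a ribosomal protein gene of the rule together with a small nucleolar RNA or microRNA only, of the kind that lie in its introns, and had medians of 0.04, 0.00 and 0.04 for CSS, the shRNA and the combined treatment. In each of these comparisons 1 of the 29 reached 1.5-fold, lower for the single treatments and higher for the combined one.

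The same genes differed in their readings when their dim probe sets were used. The 45 genes had 75 measured probe sets, 60 with a mean signal of at least log2 10 and 15 below it. The 60 bright ones had combined changes of -0.35 to 0.31 with a robust SD of 0.07, and none reached 1.5-fold. The 15 dim ones, of 10 genes, had changes of -0.72 to 1.22 with a robust SD of 0.32, and 3 reached 1.5-fold. These 3 were probe sets of RPS12 (1.22), RPL31 (-0.72) and RPL38 (-0.64), whose brightest probe sets had changes of -0.02, 0.02 and 0.08. The dim RPS12 probe set read 5.06, 5.34, 5.21 and 6.28, and was high on the shRNA CSS array alone. This dim RPL31 probe set read 5.04, 5.26, 5.20 and 4.32, at the floor on that array. RPL31 and RPL38 each have another dim probe set, with combined changes of -0.04 and -0.05. For the single treatments none of the 15 dim probe sets reached 1.5-fold.

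How far changes spread at a given signal was therefore described for other genes too, in bands of mean signal chosen after the data had been seen. For the combined treatment the robust SD over the other genes was 0.73 at log2 4.32 to 6, 0.60 at 6 to 8, 0.38 at 8 to 10, 0.26 at 10 to 11, 0.18 at 11 to 12 (80 genes) and 0.07 at 12 or more (17 genes). For CSS in control cells it was 0.18, 0.28, 0.31, 0.23, 0.16 and 0.09 over the same bands. In the dimmest band 44.5% of other genes were past 1.5-fold with the combined treatment, against 2.37% at log2 10 to 11, 0 of 80 at 11 to 12 and 1 of 17 at 12 or more, the 2 bands that hold 43 of the 45 ribosomal protein genes. The 38 ribosomal protein genes at log2 12 or more had a robust SD of 0.05 with the combined treatment and a median range over the arrays of 0.072, against 0.155 for the 17 other genes. No test of the difference was made.

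**Figure D3:**
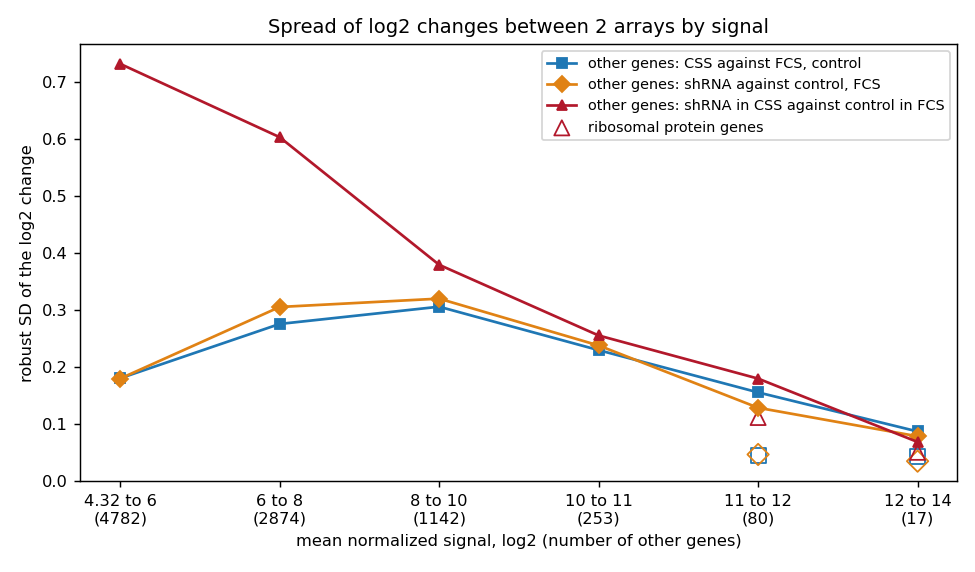
Robust SD of the log2 change (y axis) in bands of mean normalized log2 signal (x axis, with the number of other genes in brackets), filled symbols and lines for other genes and open symbols of the same shape and colour for ribosomal protein genes in the bands that hold at least 5 of them. The combined treatment (red) lies far above the single treatments in dim bands, from 0.73 at the dimmest, and the lines meet below 0.1 in the brightest band.

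Main effects of serum and of the shRNA over all 4 arrays were tested with limma in an additive model with 1 residual degree of freedom, over 8858 genes. None of the 45 genes passed an adjusted p of 0.05 for CSS, where 2.64% of genes did, or for the shRNA, where 3.94% did. At an unadjusted limma p of 0.05, 1 and 2 of the 45 passed, against 1123 and 1113 of the 8858 genes. The lowest values were those of RPS7 for the shRNA, with an effect of -0.23 ± 0.08 (SE) and a limma adjusted p of 0.0563, and of RPS9, with 0.21 ± 0.08 and an adjusted p of 0.123. RPS7 was lower and RPS9 higher with the shRNA in both sera. With only probe sets of signal at least 100, where the variance trend was fitted to 3980 brighter genes, the limma adjusted p was 3.25e-05 for RPS7 and 0.00417 for RPS9, and RPL9 (0.022) and, for CSS, RPL29 (0.0258) also passed. On the values as deposited RPS7 passed for the shRNA with a limma adjusted p of 7.22e-06, as did RPS19 (0.0194), RPL9 (0.0302) and RPL8 (0.0405), and RPL29 passed for CSS (0.0304). None of the 45 passed with a common median, where 72 and 162 of 9149 genes did for CSS and the shRNA. Without the trend of variance on signal no gene of the array passed. Over all genes, 312 and 410 of 3980 passed for CSS and the shRNA at a signal of at least 100, and 34 and 49 of 9193 as deposited. The prior degrees of freedom were infinite wherever a trend was fitted, so that the p-values rest on the variance of genes of like signal, and a departure from additivity counts as error.

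Lists of genes that make or use ribosomes, most of them at lower signals, spread more widely, and the difference was not tested. Of 24 ribosome biogenesis genes 18 were lower with CSS in control cells, with a median of -0.14 (0.02 over all genes). With the shRNA in FCS 19 were higher, with a median of 0.18 (0.00 over all genes). None of the 24 reached 1.5-fold in either. Of these 24 genes, 5 had a combined change of at least 1.5-fold upward and 4 downward, near the shares over all genes (18.2% and 16.3%), with a median of -0.10. As deposited none was higher by that much and 10 were lower, with a median of -0.45, and a common median gave 3 and 4. On the deposited scale the median over all genes was -0.17 in this comparison. The robust SD over all probe sets was 0.72, against 0.52 after quantile normalization. The share of all genes past 1.5-fold as deposited is not given here, so the deposited counts of this paragraph cannot be read as particular to these lists. TSR1 and NIP7, which mature the small and the large subunit, and WDR43, of the small subunit processome, read -1.18, -0.92 and -0.91 in that comparison. Mitochondrial ribosomal proteins (49 genes) had medians of -0.12, 0.10 and -0.16 (-0.57 as deposited), with 1 of the 49 at least 1.5-fold higher and 7 lower for the combined treatment (1 and 24 as deposited), among them MRPL28 at 1.03 (0.54 as deposited, under 1.5-fold), MRPS30 at -1.12 and MRPL9 at -1.05.

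Translation factors (20 genes) had medians of 0.12, 0.03 and 0.11, the last turning to -0.06 as deposited. EIF4E, the cap-binding protein, had log2 changes of -0.61 with CSS, 0.49 with the shRNA and -0.41 with the combined treatment (-0.92 as deposited, past 1.5-fold), where EIF3E read 0.48 and EIF4B 0.42 (0.36 and 0.26 as deposited). The 6 ribosomal protein genes with symbols ending in A, which the rule left out, had medians of 0.04, 0.01 and 0.03 and none past 1.5-fold, RPL35A at 0.15, RPL10A at 0.14 and RPS15A at 0.05 being their largest combined changes. Of the tissue-restricted and other paralogs left out, RPL3L read 4.42 in control cells in FCS, was at the floor in control cells in CSS, and read 4.51 and 5.90 in shRNA cells, and RPS27L and RPL26L1 had combined changes of -0.37 each (-0.79 and -0.83 as deposited, past 1.5-fold). With the shRNA in FCS RPL26L1 read -0.59, just past 1.5-fold, and -0.56 as deposited, just short of it. FAU, whose product is cut into a ribosomal protein of the small subunit, had log2 changes of 0.04, -0.14 and -0.02. The genes of the 3 larger lists had median mean signals of log2 10.8 (translation factors), 8.05 (mitochondrial ribosomal proteins) and 6.87 (ribosome biogenesis), in bands where the changes of all genes spread more, and what part this has in their spread was not tested.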

How the data were processed

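RNA from LAPC4 cells was hybridised to 4 Affymetrix arrays, 1 per condition. The authors' methods name signals from the Affymetrix MAS5 software, kept where the intensity was 20 or more and 1 array had a present call, then put on the log2 scale and quantile normalized; the labels name MAS5. The deposited values are log2 signals of 22277 probe sets without present calls, and the distribution differs between their columns, for which reason both steps, without the calls, were applied here. Whether they were scaled in another way is not given in the sources used here. Hybridisation date and scan are not given either, and the number of arrays limits the precision.

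The platform's annotation table gives a single gene to 19070 probe sets, more than 1 to 1043 and no gene to 2164, and symbols were updated through RefSeq (GRCh38.p14). Leaving out 62 control probe sets, the 15643 that reached a signal of 20 on any array were normalized, and lower values raised to 20 (log2 4.32, the floor). The brightest probe set stood for a gene. Where 1 of the arrays compared was at the floor the change is a bound, and where both were, none was taken. Robust SDs were scaled median absolute deviations, and local spreads took the 1000 probe sets of most similar signal. For all members but RPLP2 these were the 1000 brightest. limma 3.58.1 under R 4.3.3 gave the tests of main effects, with a variance trend and Benjamini-Hochberg adjustment over all genes. The rest was done in Python 3.11.15 with numpy 2.4.6, pandas 2.3.3 and matplotlib 3.10.9, and both parts were tested on simulated data.

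The members and lists were chosen with earlier results of these data known. Genes named are the 5 highest and 5 lowest members of each comparison against control cells in FCS and the 3 of each in the other comparisons, the stalk proteins, members with known roles, members whose probe sets differ by over 1 log2 unit, and up to 3 genes of each comparison list with the largest combined change. RPL31, RPL38 and RPL41 probe sets singled out beyond this were chosen after their values were seen. Alternatives were the deposited values, a common median, changes relative to other bright genes, normalization without the shRNA CSS array, no filter, a filter at a signal of 100, the mean over probe sets, probe sets without a suffix first, genes with suffix A added, a 2-fold threshold and limma without the trend. Leaving out RPLP2 and the bands of signal were added after seeing the data.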

Additional observations from a re-analysis of the deposited data

How the results depend on the processing

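Of 206 summary values recomputed under the alternatives, 190 stayed within 0.1 on the log2 scale or within 1.5 times the count. The summary values include the counts past 1.5-fold, which none of the 45 genes reached. Neither a 2-fold threshold nor leaving out RPLP2 could move those counts. For single genes 1167 of 1259 stayed within the local spread, which was wider than nearly every change of these genes. Adding the genes with suffix A and leaving out RPLP2 do not alter the values of single genes. The part of the 1259 from these alternatives therefore could not move. No gene was past 1.5-fold to begin with. A reversal was looked for only in single genes past it, and so could not occur. With a common median the median of the 45 ribosomal protein genes was 0.33 for the combined treatment, 0.31 for CSS in shRNA cells and 0.33 for the shRNA in CSS, 45 of 45 were higher in both comparisons that do not use control cells in FCS, and 1 gene, RPLP2, passed 1.5-fold in each of the 3. Relative to 7 other bright genes, 5 of 45 were higher with the shRNA in FCS, and for CSS in shRNA cells the median was 0.14 with 45 higher. The mean over probe sets put 1 gene, RPS12, past 1.5-fold with the combined treatment, through its dim probe set. In limma, 1 of the 45 genes passed for CSS and 4 for the shRNA on the deposited values, against 34 and 49 of 9193 genes. With a signal of at least 100, 1 and 3 of 44 passed, against 312 and 410 of 3980 genes. Normalization without the shRNA CSS array gave medians of 0.01 and 0.00 for CSS in control cells and the shRNA in FCS. The cause of these shifts was not tested. No paired analysis was possible because each condition has 1 array. The dim probe sets of RPLP2, RPS12, RPL31 and RPL38 lie near background, which limits what their changes show, and no change between 2 conditions has a replicate.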
